A study of Mus musculus with 8 samples.

Results

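The 8 genes described here encode Eph receptors and ephrin ligands of the intestinal crypt: the receptors Ephb2, Ephb3, Ephb4, Ephb6 and Epha2, and the ligands Efnb1, Efnb2 and Efna1. They were chosen by symbol, and each matched a single row of the 32285 genes in all 8 libraries. Eph receptors are receptor tyrosine kinases that bind ephrins on neighbouring cells. Contact between a receptor cell and a ligand cell usually ends in repulsion or separation, with signals running in both directions. In the intestinal epithelium EphB receptors are known as Wnt targets of the crypt base, and B-type ephrins are known from the differentiated cells above, an arrangement that keeps the compartments sorted. In vessels, Ephb4 and Efnb2 are known as the venous and arterial partners.

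The libraries came from C57BL/6 mice of unstated age. In 4 libraries RNA was counted per cell with 10x single-cell sequencing. Organoids grown from small intestine to passage 1 gave a control library (CTRL) and a library after coculture (COCULTURE, partner not named in the labels), each from 16 pooled wells with 100000 sorted epithelial cells. Small and large intestine gave 1 library each. Their digested tissue was sorted for live cells and enriched for LGR5+ stem cells and for CD31+ PDPN+ LYVE1+ lymphatic endothelial cells, and both wild-type and Lgr5-eGFP-ires-CreERT2 mice served for sorting, so class shares reflect the sort. The other 4 libraries were Visium spatial arrays of 10 µm sections, with 2 technical duplicates for each tissue. With 1 library per condition or tissue, and duplicates that are technical, no comparison was given a p-value: every interval below is an exact 95% interval that covers counting error only.

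The libraries held 24356162 to 142501907 unique molecule counts (UMIs). After filtering, 538 control organoid cells, 1028 cocultured organoid cells, 2695 small intestinal cells and 5882 large intestinal cells remained, and the sections kept 2094 to 2571 spots. In small intestine 5497 of 8842 barcodes exceeded the limit of 20% mitochondrial UMIs and were left out. Levels are given as CPM, a gene's count for every 1000000 UMIs found in the same cells or spots. A gene was counted as higher or lower when the log2 ratio reached 1 in either direction. Cells were placed in classes by fixed marker genes, and class names such as stem-like rest on those markers alone. No member is a marker of a class or of the crypt and surface lists.

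All 8 members have a transcription start in RefSeq (GRCm38.p6, the build called mm10 by the submitters). The 250 bases upstream of 4 of them are shown because these genes carry the opposed crypt and surface levels described below. Capitals mark a Tcf/Lef core (CTTTGA, either strand) or a GC box (GGGCGG, either strand). Ephb2 lies at chr4:136647536-136836326, and its upstream window at chr4:136836013-136836262 on the minus strand. Ephb3 lies at chr16:21204620-21223309, with its window at chr16:21204545-21204794 on the plus strand. Efnb2 lies at chr8:8617235-8661242, with its window at chr8:8661243-8661492 on the minus strand. Epha2 lies at chr4:141301221-141329384, with its window at chr4:141300971-141301220 on the plus strand. Spans are those of the whole gene in RefSeq and a window ends at the start of 1 transcript, so the Ephb2 window lies within its span and the Ephb3 window partly so.
Ephb2: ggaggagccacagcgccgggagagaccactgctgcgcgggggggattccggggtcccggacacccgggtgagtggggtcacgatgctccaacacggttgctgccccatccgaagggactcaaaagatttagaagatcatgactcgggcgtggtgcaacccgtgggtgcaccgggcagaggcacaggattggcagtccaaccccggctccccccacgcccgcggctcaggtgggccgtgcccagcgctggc
Ephb3: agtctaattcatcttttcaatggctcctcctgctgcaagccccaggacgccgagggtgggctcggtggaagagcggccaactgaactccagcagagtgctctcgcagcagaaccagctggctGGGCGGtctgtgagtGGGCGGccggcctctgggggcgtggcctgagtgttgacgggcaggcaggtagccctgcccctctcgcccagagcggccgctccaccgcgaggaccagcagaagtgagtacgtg
Efnb2: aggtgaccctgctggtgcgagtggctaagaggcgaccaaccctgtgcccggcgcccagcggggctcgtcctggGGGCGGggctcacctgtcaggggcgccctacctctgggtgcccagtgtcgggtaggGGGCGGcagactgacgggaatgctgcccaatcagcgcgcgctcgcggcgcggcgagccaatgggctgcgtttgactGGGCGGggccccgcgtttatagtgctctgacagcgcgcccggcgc
Epha2: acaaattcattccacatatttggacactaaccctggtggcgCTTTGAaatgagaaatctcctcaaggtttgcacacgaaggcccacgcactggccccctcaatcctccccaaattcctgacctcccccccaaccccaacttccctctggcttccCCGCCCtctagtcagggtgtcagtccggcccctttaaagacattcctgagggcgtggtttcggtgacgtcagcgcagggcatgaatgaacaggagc
The windows are GC-rich, with 68.4% G or C for Ephb2, 65.6% for Ephb3, 72% for Efnb2 and 55.6% for Epha2. The Tcf/Lef core occurred once in the Epha2 window and in none of the other 7 genes' windows. It is present in 4544 of 32851 RefSeq windows of that length, or 13.8%. The GC box, in 32.7% of all windows, occurred in 6 of the 8 genes and was absent from the Ephb2 and Efnb1 windows. These letters say nothing of binding, and a window without them may have sites elsewhere.

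In the spatial sections the crypt side and the surface side were compared. A spot was called crypt-side when 6 crypt genes (Lgr5, Ascl2, Olfm4, Slc12a2, Cdca7 and Gkn3) were together at or above the 75th percentile of the section and 4 surface genes at or below its median, and surface-side in the reverse case. A spot covers several cells, so fewer cells of a type and less RNA per cell cannot be told apart in it. Small intestine gave 463 and 548 crypt-side and 423 and 530 surface-side spots, and large intestine 443 and 467 against 436 and 472. Ephb2, Ephb3 and Ephb4 were higher on the crypt side in all 4 sections, by about 3 log2 units in small intestine and by less in large intestine. Epha2 and Efna1 were lower there in all 4 sections, as was Efnb2 in large intestine.

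Ephb2, a receptor used to isolate crypt base cells, stood at 54.5 and 51.6 CPM in the crypt-side spots of the 2 small intestinal sections and at 7.12 and 5.99 CPM in the surface-side spots. The log2 ratio was 2.94 (2.48 to 3.42) and 3.11 (2.67 to 3.56). In large intestine Ephb2 fell from 49.1 and 49.3 CPM on the crypt side to 12.3 and 15.3 CPM at the surface, a log2 ratio of 1.99 (1.69 to 2.31) and 1.69 (1.42 to 1.96). The crypt-side levels of both tissues lay close together, while the surface-side levels of the large intestine were higher in both sections.

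Ephb3, the close relative that acts with Ephb2 in crypts, was at 35.1 and 41.2 CPM on the crypt side of small intestine against 4.09 and 4.10 CPM at the surface (log2 ratio 3.22 ± 0.16, SD, n = 2 sections). Large intestine had 28.1 and 26.3 CPM against 5.83 and 6.24 CPM (2.17 ± 0.14). Ephb4, a receptor of Efnb2 best known from veins, was at 63.5 and 54.3 CPM against 8.78 and 5.32 CPM in small intestine (3.10 ± 0.35), and at 58.9 and 61.9 CPM against 10.7 and 8.87 CPM in large intestine (2.63 ± 0.24). For all 3 receptors each crypt-side level was above every surface-side level.

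Epha2, an A-type receptor of differentiated epithelium and vessels, ran the other way. It was at 16.7 and 24.5 CPM in crypt-side spots and at 119 and 140 CPM in surface-side spots of small intestine (log2 ratio -2.68 ± 0.23), and at 3.83 and 5.28 CPM against 37.8 and 41.7 CPM in large intestine (-3.14 ± 0.23). Its ligand Efna1 moved with it, from 52.2 and 63.0 CPM on the crypt side to 195 and 223 CPM at the surface of small intestine (-1.86 ± 0.06). In large intestine Efna1 went from 26.0 and 26.2 CPM to 217 and 222 CPM (-3.07 ± 0.02).

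Both B-type ligands had crypt-side over surface-side ratios below 0 in every section, with sizes that depended on the gene and the tissue. Only Efnb2 in large intestine reached the threshold in both sections. Efnb2 went from 17.8 and 14.2 CPM on the crypt side to 120 and 108 CPM at the surface of large intestine (log2 ratio -2.84 ± 0.12). In small intestine the same gene had 28.4 and 52.5 CPM against 70.4 and 81.7 CPM (-0.98 ± 0.48), and the 2 sections gave -1.31 (-1.61 to -1.02) and -0.64 (-0.86 to -0.42), intervals that do not overlap. Efnb1 had 55.4 and 69.2 CPM against 99.3 and 133 CPM in small intestine (-0.89 ± 0.07), within the section spread of Efnb2. In large intestine it differed by less than Efnb2, with 30.5 and 30.8 CPM against 60.3 and 65.1 CPM (-1.03 ± 0.07).

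Ephb6, a receptor whose kinase is inactive, was nearly missing from the small intestinal sections, with 25 and 28 UMIs in all. In large intestine it had 5.03 and 3.88 CPM on the crypt side and 14.2 and 16.3 CPM at the surface (log2 ratio -1.78 ± 0.41), which rests on 46 and 36 UMIs against 124 and 167. It was thus the one EphB receptor with its higher level at the large intestinal surface.

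Of the 7 members with at least 50 UMIs over the crypt-side and surface-side spots of small intestine (all but Ephb6), 3 were higher and 2 lower on the crypt side in both sections. Over all 11990 genes tested, 38.8% were higher and 11.2% lower, so 3 of 7 is near the share of all genes and the lower count rests on 2 genes. In large intestine 3 of 8 members were higher and 4 lower, where 30.8% and 9.41% of 12730 genes were. The members' median log2 ratio was -0.89 in small and -1.41 in large intestine, against 0.77 and 0.62 over all genes. Crypt-side spots also held more muscle RNA (summed muscle list 5891 and 8710 CPM against 1084 and 1293 CPM at the surface in small intestine) and more of the lymphatic list (146 and 190 against 13.8 and 10.9 CPM). The blood endothelial list was higher at the large intestinal surface, at 667 and 697 CPM against 144 and 141 CPM, where Efna1 and Efnb2 were high. That list was also higher in surface-side than crypt-side epithelial cells of large intestine, at 40.9 against 4.36 CPM. Control organoids had 25.2 against 6.32 CPM and cocultured organoids 15.5 against 4.06 CPM, so the list is not specific to endothelium along this axis. Among spots at or below the median of the muscle list the Ephb2 ratio was 3.37 and 3.57 in small and 2.21 and 2.15 in large intestine, not smaller than in all spots. For Ephb3 the same spots gave 3.24 and 3.42 in small intestine and 2.26 and 1.43 in large intestine, the last of these below the 2.08 of all spots in that section. The part of the endothelial lists was not tested in large intestinal spots, since only 1 and 2 surface-side spots lacked every endothelial UMI. In small intestine, spots without any such UMI gave 3.46 and 3.47 for Ephb2, 3.79 and 2.78 for Ephb3 and 4.33 and 3.58 for Ephb4. The ligand ratios were nearer to 0 in these spots, at -0.69 and -0.38 for Efnb2 and -0.52 and -0.68 for Efnb1. Small intestinal epithelial cells held the blood endothelial list at 26.9 CPM on the surface side and 9.41 CPM on the crypt side. Leaving out these spots therefore does not remove endothelium alone, and the endothelial part of the ligand levels was not tested. Median depth differed too: 7899 and 6144.5 UMIs in crypt-side against 15005 and 15759.5 in surface-side spots of small intestine. With every spot thinned to 2000 UMIs the small intestinal ratios were 2.37 for Ephb4 and -1.93 for Epha2, and the large intestinal ratio was 1.58 for Ephb3. By section, thinned spots gave 3.03 and 1.93 for Ephb2 in small intestine and 1.4 and 1.24 for Ephb2 in large intestine. For Efnb2 in small intestine, thinned spots gave -1.15 and -0.13.

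**Figure D1:**
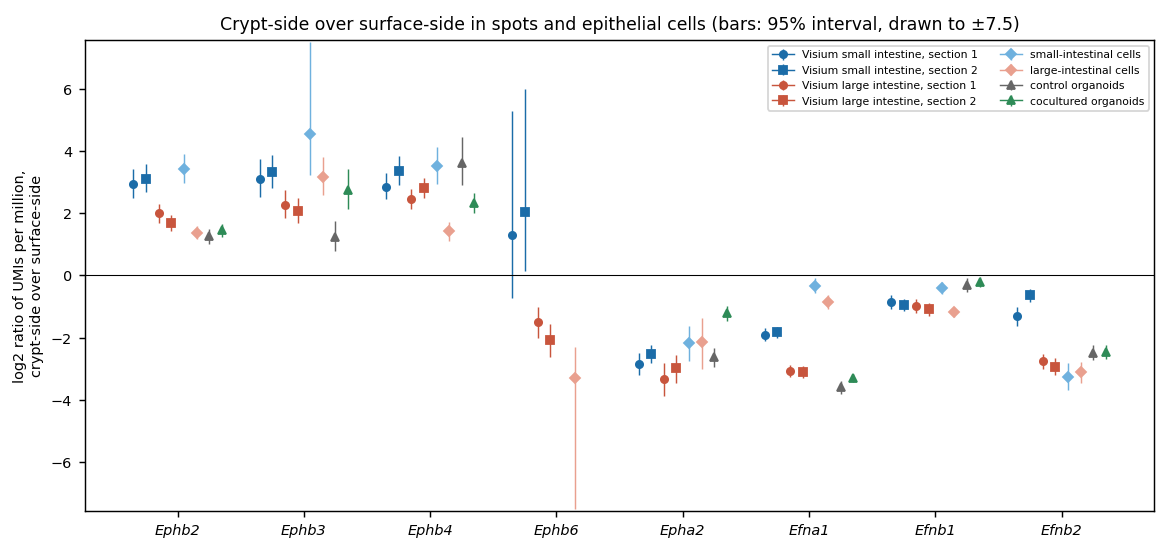
Crypt-side over surface-side log2 ratio (vertical axis) of each member in the Visium sections and in epithelial cells, with exact 95% counting intervals as bars. Ephb2, Ephb3 and Ephb4 lie above 0 in every library shown, and Epha2 and Efnb2 lie below it.

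Ordering all spots by rank of the crypt list minus rank of the surface list and cutting them into 5 equal groups gave the shape of each profile. Ephb2 declined stepwise in small intestine, from 53.1 through 38.6, 21.4 and 8.79 to 7.03 CPM in the first section and from 45.1 through 24.3, 17.5 and 7.57 to 5.67 CPM in the second. Large intestine declined less, from 48.7 through 32.3, 26.8 and 17.2 to 13 CPM and from 50.4 through 30.3, 26.3 and 20.1 to 15.4 CPM. Every step was downward in all 4 sections.

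Ephb3 dropped faster at the crypt end. Its first and next groups were 34.3 and 17.2 CPM and 34.9 and 16.0 CPM in the small intestinal sections, and 24.7 and 13.6 CPM and 25.5 and 9.24 CPM in the large. From the middle group on it stayed between 3.85 and 9.06 CPM in every section. In each section the step from the first group to the next was thus the biggest step of Ephb3 in CPM.

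Efnb2 rose at every step in large intestine, through 17.3, 31.0, 48.6, 77.0 and 116 CPM and through 12.7, 26.0, 44.2, 78.5 and 107 CPM. In small intestine it rose over the first 3 groups of section 1 and then changed little, at 27.0, 43.9, 71.5, 78.8 and 76.0 CPM. Section 2 peaked in the middle group and then fell, at 50.0, 59.9, 105 (96.2 to 115), 93.6 and 84.6 (78.5 to 91.1) CPM. Efnb1 in small intestine was highest in the last groups, with 54.2, 63.8, 87.0, 104 and 99.2 CPM and 58.1, 62.2, 118, 131 and 129 CPM. Ephb6 in large intestine rose over the first 3 groups and then levelled, at 5.39, 9.02, 15.9, 15 and 15 CPM and at 3.52, 8.25, 15.1, 17.0 and 14.9 CPM.

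**Figure D2:**
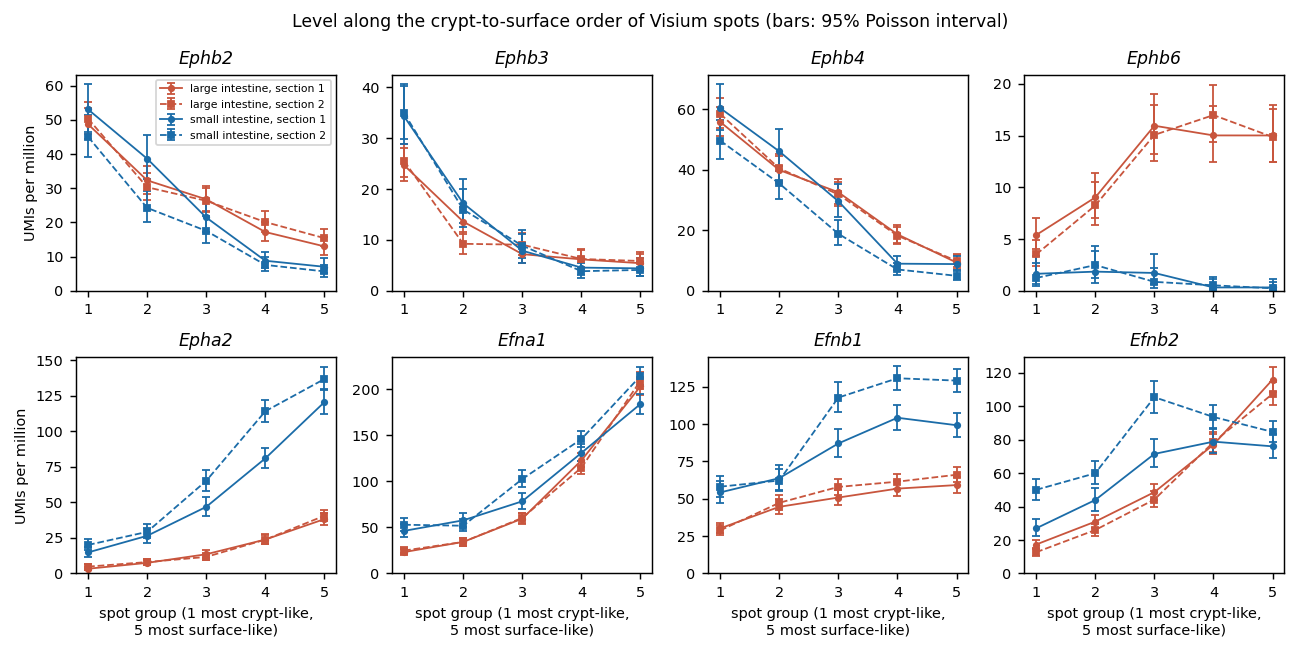
CPM of each member over 5 equal groups of Visium spots, from the most crypt-like group to the most surface-like, with 1 line per section and exact 95% counting intervals as bars. Ephb2 and Ephb3 fall along the axis in all 4 sections, and Efnb2 rises at every step in large intestine but not in small intestine, where section 2 peaks in the middle group.

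The same crypt and surface lists were then applied to single epithelial cells, where each barcode is meant to hold 1 cell. Small intestine gave 295 crypt-side and 268 surface-side epithelial cells, large intestine 597 and 560, control organoids 121 and 118, and cocultured organoids 232 and 248. In all 4 libraries Ephb2, Ephb3 and Ephb4 were higher in crypt-side cells and Epha2 and Efnb2 lower. Ephb2 was at 64.8 against 6.06 CPM in small intestine (log2 ratio 3.42, 2.97 to 3.90) and at 52.6 against 20.2 CPM in large intestine (1.38). In organoids it was at 60.9 against 25.4 CPM in the control (1.26) and 38.2 against 14.0 CPM after coculture (1.45). The gap for Ephb2 was thus widest in small intestinal tissue, but the surface-side cut was not alike between libraries. The 75th percentile of the surface list was 46.1 CPM in large intestinal cells and 820 CPM in small intestinal cells. It was 2932 CPM in control and 2234 CPM in cocultured organoids, so ratio sizes do not compare like for like between these libraries.

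Ephb3 had 77 UMIs in crypt-side and 2 in surface-side cells of small intestine. In large intestine it was at 16.1 against 1.79 CPM (3.17), in control organoids at 15.9 against 6.71 CPM (1.25), and in cocultured organoids at 9.64 against 1.44 CPM (2.75). Ephb4 was at 44.6 against 3.95 CPM in small intestine (3.5), 23.0 against 8.60 CPM in large intestine (1.42), and 28.6 against 2.33 CPM (3.62) and 26.0 against 5.21 CPM (2.32) in control and cocultured organoids. Ephb4 is best known from veins, and the same order of crypt over surface was therefore measured here in cells gated as epithelial.

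Efnb2 differed more between epithelial cells than between spots of small intestine. It had 6.48 CPM in crypt-side and 61.3 CPM in surface-side cells (log2 ratio -3.24). Large intestine gave 5.88 against 50.6 CPM (-3.10), and both organoid libraries gave -2.47, from 13.9 against 77.3 CPM and 8.12 against 44.8 CPM. Efnb1 again differed by less, at 51.1 against 68.1 CPM in small intestine (-0.41), 31.4 against 70.9 CPM in large intestine (-1.18), 31.1 against 38.4 CPM in control (-0.30) and 27.2 against 31.6 CPM in cocultured organoids (-0.21). Of the B-type ligands, Efnb2 thus carried the wider contrast in each of these 4 libraries.

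Efna1 was at 32.7 against 41.0 CPM in small intestinal cells (-0.33) and 18.4 against 33.3 CPM in large intestinal cells (-0.86), beside -1.86 and -3.07 in the spots. With the strict cell filter the large intestinal value was 0.066. In organoids it was at 17.0 against 204 CPM (-3.58) and 21.0 against 207 CPM (-3.30). Epha2 was at 4.45 against 19.9 CPM (-2.16), 1.23 against 5.43 CPM (-2.14), 8.45 against 52.1 CPM (-2.62) and 9.01 against 20.9 CPM (-1.21) in small intestine, large intestine, control and cocultured organoids. Ephb6 in large intestine had 1 UMI in crypt-side and 31 in surface-side cells.

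Among the 7 members measured in small intestinal cells 3 were higher and 2 lower, beside 34.4% and 14.7% of all genes. Large intestine had 3 higher and 3 lower of 7, beside 15.5% and 9.62%. With the stricter cell filter (1000 genes, 10% mitochondrial UMIs) the large intestinal ratio of Ephb2 was 0.65 and that of Ephb4 was 0.87, which leaves 1 member higher. Organoids had 3 higher and 3 lower in each library, beside 36.4% and 16.3% in the control and 34.2% and 15.7% after coculture. The counts of higher members are thus near the shares of all genes in small intestine and organoids.

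By cell class, Ephb2 was high in stem-like, cycling and tuft-like cells and low in absorptive cells. Small intestine had 58.5 CPM in 160 stem-like cells, 49.7 CPM in 179 cycling cells, 26.7 CPM in 157 goblet-like cells and 6.69 CPM in 269 enterocyte-like cells. Stem-like over enterocyte-like cells gave a log2 ratio of 3.13 (2.70 to 3.58). Large intestine had 50.4 CPM in 692 stem-like, 46.6 CPM in 718 cycling, 45.7 CPM in 593 deep secretory-like, 24.9 CPM in 420 goblet-like and 9.88 CPM in 253 colonocyte-like cells, and stem-like over colonocyte-like cells gave 2.35. Stem-like and cycling cells did not differ beyond counting error, at 0.24 (-0.01 to 0.48) and 0.11 (-0.02 to 0.24). Cells kept under a looser filter of 200 genes and 50% mitochondrial UMIs gave 2.99 for the large intestinal ratio.

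The highest Ephb2 level among classes of at least 20 cells was in tuft-like cells, the chemosensory cells marked by Dclk1 and Trpm5. These had 141 CPM over 96 cells in small and 82.1 CPM over 70 cells in large intestine. The log2 ratio to stem-like cells was 1.27 (1.00 to 1.55) and 0.70 (0.38 to 1.01). After thinning every cell to 2000 UMIs, an Ephb2 UMI was found in 28.1% of 96 tuft-like against 10.1% of 159 stem-like cells in small intestine, and in 20.9% of 67 against 8.10% of 691 in large intestine. Without thinning the shares were 82.3% against 65% and 67.1% against 64.5%. In B cells, which should lack Ephb2, the thinned share was 1.10% of 273 and 0.952% of 105, and in enterocyte-like and colonocyte-like cells it was 0.743% and 1.30%, no higher than in B cells beyond counting error.

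Ephb3 did not follow Ephb2 into tuft-like cells. It was at 11.4 CPM in stem-like, 2.70 CPM in cycling and 2.59 CPM in tuft-like cells of small intestine, and at 16.1, 7.25 and 3.42 CPM in large intestine. Tuft-like over stem-like cells gave -2.14 and -2.23, opposite in sign to Ephb2 in both tissues. Stem-like over cycling cells gave 2.08 in small and 1.15 in large intestine, against 0.24 and 0.11 for Ephb2, and with clusters in place of the gate the small intestinal value was 1.21. Enterocyte-like cells had 0 Ephb3 UMIs against 45 in stem-like cells. Colonocyte-like cells had 1.08 CPM.

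Ephb3 UMIs were also found in fibroblast-like cells, with 8 UMIs (15.6 CPM) over 74 cells in small and 27 UMIs (9.49 CPM) over 379 cells in large intestine. T or NK-like cells had Ephb6 at 19.9 CPM from 5 UMIs in small and at 4.72 CPM from 1 UMI in large intestine. Fibroblast-like cells held Ephb2 at 39.1 and 12.7 CPM and Ephb6 at 13.7 and 2.46 CPM, the latter from 7 UMIs in each tissue. The small intestinal values depend on how these cells are grouped: by clusters, Ephb3 was at 8.24 CPM in the fibroblast-like cluster of 35 cells and at 16.5 CPM in the smooth muscle-like or pericyte-like cluster of 57 cells, and Ephb6 was at 0 and 16.5 CPM. In the large intestinal epithelium Ephb6 was at 3.71 CPM in colonocyte-like cells, from 24 UMIs, and at 1.31 CPM in epithelial cells of no subclass, from 21 UMIs, with 0 UMIs in 692 stem-like cells. The colonocyte-like level was not even: by clusters, Ephb6 was at 13.8 CPM in a colonocyte-like cluster of 84 cells and at 0 CPM in another of 193 cells.

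Within a class, the ratio of Ephb3 to Ephb2 UMIs says how the mix of the pair shifts between classes, without comparing the level of one gene with that of the other. Its log2 value was -2.36 in stem-like (45 against 231 UMIs), -4.21 in cycling and -5.77 in tuft-like cells of small intestine. Large intestine had -1.65, -2.69 and -4.58 in the same order. The stem-like interval lay above that of cycling cells in both tissues. The tuft-like values rest on 4 Ephb3 UMIs in each tissue, and in small intestine the tuft-like interval (-7.66 to -4.39) overlapped that of cycling cells (-4.98 to -3.52). In 23 enteroendocrine-like cells of cocultured organoids it was -0.23, from 46 Ephb3 and 54 Ephb2 UMIs.

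Ephb4 had its highest levels in endothelial-like cells, whose median depth of 2476 to 3833 UMIs was well under the 22306 and 24271.5 of stem-like cells. Lymphatic endothelial-like cells stood at 142 CPM over 344 small intestinal cells and 59.8 CPM over 201 large intestinal cells, and blood endothelial-like cells at 92.2 CPM over 40 and 85.5 CPM over 87. The pair did not differ beyond counting error in either tissue (blood over lymphatic -0.62, -1.52 to 0.16, and 0.51, -0.20 to 1.22). Within the epithelium Ephb4 was at 45.4 CPM in stem-like, 29.5 CPM in cycling and 5.20 CPM in enterocyte-like cells of small intestine, and at 25.3, 18.1 and 4.79 CPM in stem-like, cycling and colonocyte-like cells of large intestine. An Ephb4 UMI was found after thinning in 27.1% and 10.9% of lymphatic and 16.1% and 13.9% of blood endothelial-like cells, and in 0 of 273 and 0 of 105 B cells, which allows a share of cells with a UMI of up to 1.10% and 2.86% there when a count of 0 is taken as up to 3 cells.

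Efnb2, the arterial ligand of Ephb4, was highest in blood endothelial-like cells, with 237 CPM in small intestine and 146 CPM in large intestine. Lymphatic endothelial-like cells had 58.4 and 81.9 CPM, so the log2 ratio of blood over lymphatic was 2.02 (1.40 to 2.62) and 0.83 (0.27 to 1.40). In blood over lymphatic endothelial-like cells 2 of 4 measured members were higher and 1 lower in small intestine (all genes 7.22% and 19.7%), and 1 of 4 higher and 0 lower in large intestine (11.2% and 11.7%). Tuft-like cells came next in small intestine at 94.7 CPM and had 63.2 CPM in large intestine. Enterocyte-like and colonocyte-like cells had 64.9 and 72.6 CPM. Goblet-like cells had 28.8 and 36.8 CPM, cycling cells 22.3 and 5.08 CPM, and stem-like cells 7.6 and 2.58 CPM. Stem-like cells thus had the lowest Efnb2 among the named epithelial classes of at least 20 cells in both tissues, with log2 ratios to enterocyte-like and colonocyte-like cells of -3.09 and -4.81. With the stricter filter the small intestinal ratio was -3.85. That ranking leaves out 211 small intestinal cells with Paneth markers but no lineage, described below, which had Efnb2 at 2.10 CPM.

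Tuft-like cells therefore held a high level of the receptor gene Ephb2 together with a high level of Efnb2, with Efnb2 higher than in stem-like cells by 3.64 and 4.61 on the log2 scale. Of 5 members measured in this pair of small intestinal classes 2 were higher in tuft-like cells (Ephb2 and Efnb2) and 1 lower (Efna1), where 18.5% and 17.9% of all genes were. Large intestine had 1 higher (Efnb2) and 2 lower (Ephb3 and Efna1) of 6, where 13% and 12.6% were. Over all epithelial cells of the tissue libraries thinned to 10000 UMIs an Ephb2 UMI was rarer in cells with an Efnb2 UMI than in cells without. An Ephb2 UMI was found in 21.6% of 328 small intestinal cells with an Efnb2 UMI and in 30.3% of 726 without. Large intestine had 24.4% of 357 against 33.3% of 2575. Ephb3 was found in 0.915% against 3.99% of the same small intestinal cells and in 4.2% against 8.82% of the large intestinal cells. For Efnb1, Ephb2 was found in 28.1% of small intestinal cells with and 27.2% without an Efnb1 UMI, and in 28.3% (25.4 to 31.4) against 33.9% (31.9 to 36.0) of large intestinal cells. In organoids the pattern was less even: Ephb3 was found in 12.9% (7.56 to 20.1) of control cells with and 9.51% (6.55 to 13.2) without an Efnb2 UMI, and in 1.49% against 6.42% of cocultured cells. Ephb2 was found in 29.0% (21.2 to 37.9) against 40.5% (35.1 to 46.0) of control and in 20.8% (15.4 to 27.0) against 25.4% (22.2 to 28.7) of cocultured cells. The intervals overlapped in both organoid libraries.

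Efnb1, the broader B-type ligand, had 51.2 CPM in stem-like and 68.1 CPM in enterocyte-like cells of small intestine (log2 ratio -0.41), and 27.9 CPM in stem-like and 92.5 CPM in colonocyte-like cells of large intestine (-1.73). Tuft-like cells had 68.1 and 46.2 CPM. Blood endothelial-like cells had 105 and 95.5 CPM against 51.1 and 18.9 CPM in lymphatic endothelial-like cells. Efna1 was at 193 and 156 CPM in lymphatic and at 85.6 and 199 CPM in blood endothelial-like cells. In the epithelium it did not differ between stem-like and enterocyte-like cells of small intestine (38.8 and 40.4 CPM, log2 ratio -0.06, -0.35 to 0.22) and was lower in stem-like than in colonocyte-like cells (22.6 and 52.0 CPM, -1.20). Epha2 was at 39.5 and 27.7 CPM in blood endothelial-like cells, at 17.7 and 8.80 CPM in enterocyte-like and colonocyte-like cells, and at 5.32 and 1.68 CPM in stem-like cells.

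Over the 6 members measured between stem-like and enterocyte-like cells, 2 were higher and 2 lower in stem-like cells, where 29.7% and 15.2% of all genes were. Ephb3, with 45 UMIs, was under the minimum of 50. Between stem-like and colonocyte-like cells 3 of 7 were higher and 4 lower, where 31.8% and 13.4% of all genes were. Deep secretory-like cells, the Reg4 cells at the base of colonic crypts, had more Ephb2 (log2 ratio 0.87) and Ephb3 (1.18) and less Efnb1 (-0.76) and Efnb2 (-1.59) than goblet-like cells of the same library.

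**Figure D3:**
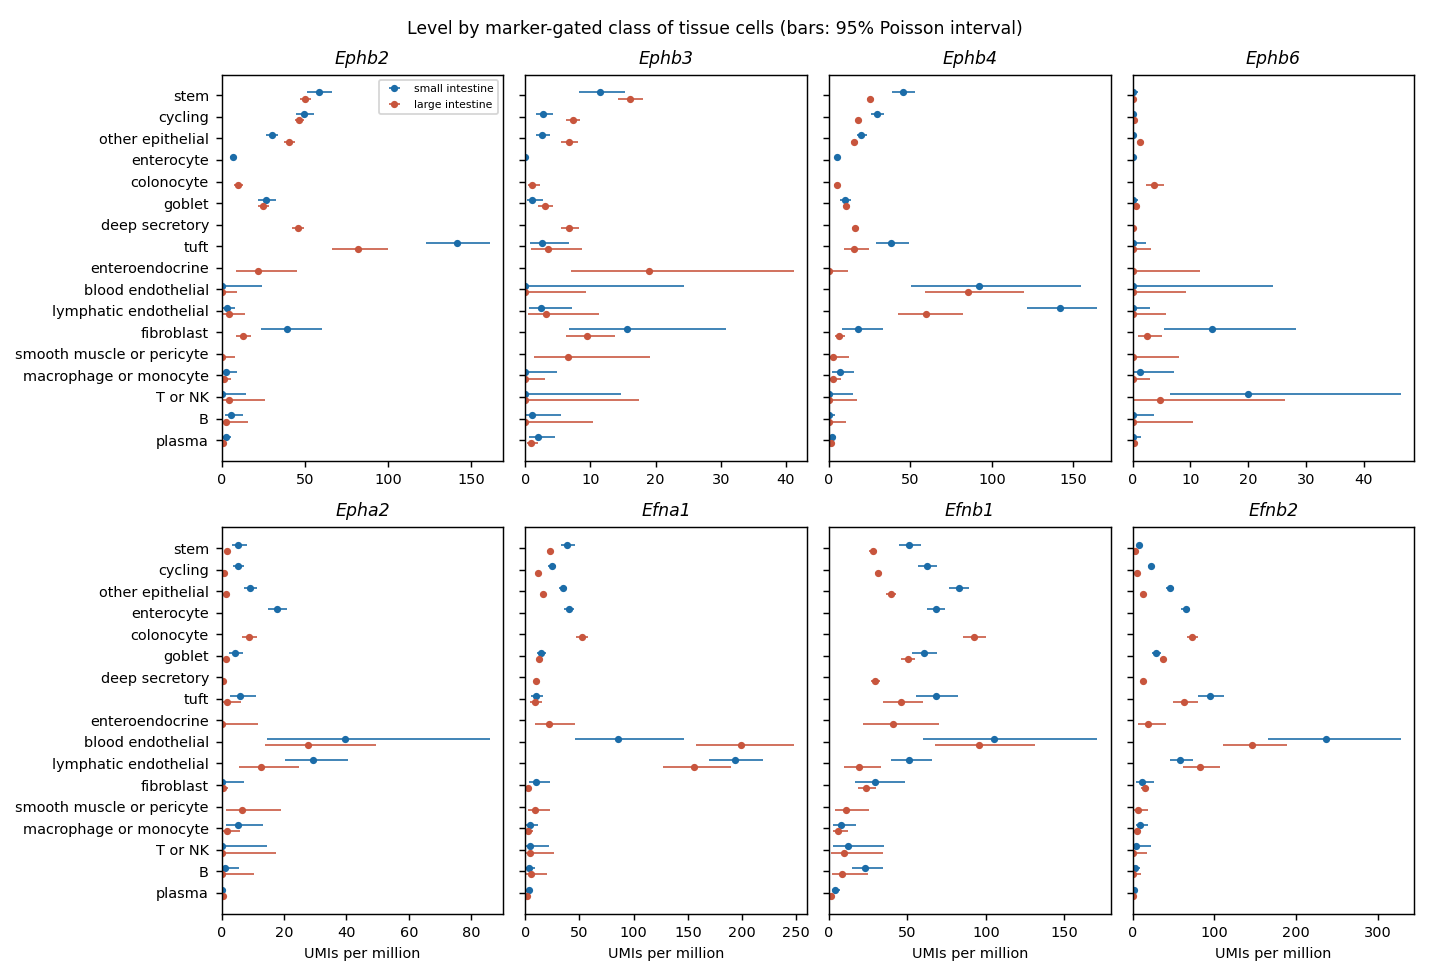
CPM of each member in the gated classes of the small and large intestinal tissue libraries, with exact 95% counting intervals as bars. Ephb2 is highest in tuft-like cells, at 141 and 82.1 CPM, and Efnb2 in blood endothelial-like cells, at 237 and 146 CPM.

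Splitting epithelial cells by an Lgr5 UMI, after thinning to 10000 UMIs, gave ratios above 0 for Ephb2, Ephb3 and Ephb4 in both tissue libraries. Those of Efnb1 and Efnb2 were below 0. The threshold was reached by Ephb2, Ephb3, Ephb4 and Efnb2 in small intestine and only by Ephb3 and Efnb2 in large intestine. Lgr5 marks crypt base stem cells, was enriched in the sort and belongs to the stem markers and the crypt list, so the split is not independent of them. In small intestine the 143 cells with Lgr5 exceeded the 911 without by 1.21 for Ephb2, 2.28 for Ephb3 and 1.05 for Ephb4 on the log2 scale. Efnb1 and Efnb2 were at -0.65 and -1.44. In large intestine, with 341 and 2591 cells, the values were 0.66, 1.21, 0.62, -0.51 and -1.03 in the same order. Efna1 was on the other side from the B-type ligands, at 0.60 (0.19 to 1.00) in small and 0.33 (-0.03 to 0.68) in large intestine, and Epha2 was at -0.93 (-2.29 to 0.17) and 0.31 (-1.09 to 1.47). Control organoids had 25 cells with Lgr5 against 425 without, and the receptor intervals included 0, at 0.40 (-0.43 to 1.13) for Ephb2, -0.35 (-2.66 to 1.26) for Ephb3 and -0.33 (-2.64 to 1.28) for Ephb4. Efnb2 was at -1.35 (-2.99 to -0.11) there. Cocultured organoids had 11 such cells, too few for a ratio.

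Between the tissues, the same class in small over large intestine can be compared only with library and tissue together, which cannot be told apart. Stem-like cells differed little in Ephb2 (log2 ratio 0.22) and Ephb3 (-0.49), and more in Ephb4 (0.84), Efnb1 (0.88), Efnb2 (1.56) and Epha2 (1.66). In cycling cells the ratios were 2.14 for Efnb2, 2.71 for Epha2 and -1.43 for Ephb3. In the summed Visium sections Ephb2 had 19.8 CPM in small and 28.5 CPM in large intestine (-0.53), Ephb3 11.9 and 11.6 CPM (0.03), and Ephb4 23.0 and 31.9 CPM (-0.47). Epha2 had 75.6 and 17.5 CPM (2.11) and Ephb6 0.973 and 11.8 CPM (-3.59). Epha2 was thus the 1 member of 8 counted as higher in small intestine and Ephb6 the 1 counted as lower, where 15.4% and 13.5% of 15373 genes were. Efna1 (0.43), Efnb1 (0.95) and Efnb2 (0.38) were above 0 and under the threshold.

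The organoid libraries asked what coculture does to the same genes. Epithelial cells were sorted from both, and all kept cells were summed. Ephb2 was at 46.8 CPM in the control and 28.4 CPM after coculture, a log2 ratio of -0.72 (-0.80 to -0.64). Ephb3 was at 10.5 and 5.03 CPM (-1.07, -1.25 to -0.88). Epha2 was at 25.4 and 12.7 CPM (-1.0, -1.12 to -0.89) and Efnb2 at 37.6 and 23.5 CPM (-0.68, -0.77 to -0.59). Ephb4 was at 16.9 and 15.9 CPM (-0.09, -0.22 to 0.04), Efnb1 at 36.5 and 33.3 CPM (-0.13) and Efna1 at 68.5 and 72.4 CPM (0.08). Ephb6 had 0 and 1 UMI.

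Of the 7 members measured, 0 were higher and 2 lower after coculture, where 1.77% of 12623 genes were higher and 3.6% lower. The members' median was -0.68, against -0.10 over all genes. Both called members lie at the threshold: with median-of-ratios scaling, which shifts all values by 0.15, none is called, Ephb2 is at -0.57, and Ephb4 and Efnb1 lie at 0.055 and 0.014. These are 1 library each, so the difference between the libraries has no replicate check.

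The Ephb2 ratio, which was short of the threshold over all cells, was below 0 and short of it in each of the 4 organoid classes compared. Classes with few cells were not compared. Stem-like cells (94 control and 165 cocultured) gave -0.70, cycling cells (118 and 277) -0.68, enterocyte-like cells (109 and 288) -0.72 and the remaining epithelial cells (164 and 225) -0.68. The genes leading the organoid stem-like classes include Cdc6, Ung and Ccne2, which act in DNA replication and repair or the start of S phase, in both libraries, beside the stem marker Olfm4 in control and Olfm4 and Lgr5 in cocultured organoids. Ephb3 was uneven: -0.26 (-0.69 to 0.18) in stem-like and -0.80 in cycling cells, and -2.39 in enterocyte-like and -2.02 in the remaining cells. Epha2 was likewise uneven, at -0.25 in stem-like and -0.19 in cycling cells and at -1.26 in enterocyte-like and -1.65 in the remaining cells. Efnb2 was at -0.53, -0.61, -0.68 and -0.88 in the same order.

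**Figure D4:**
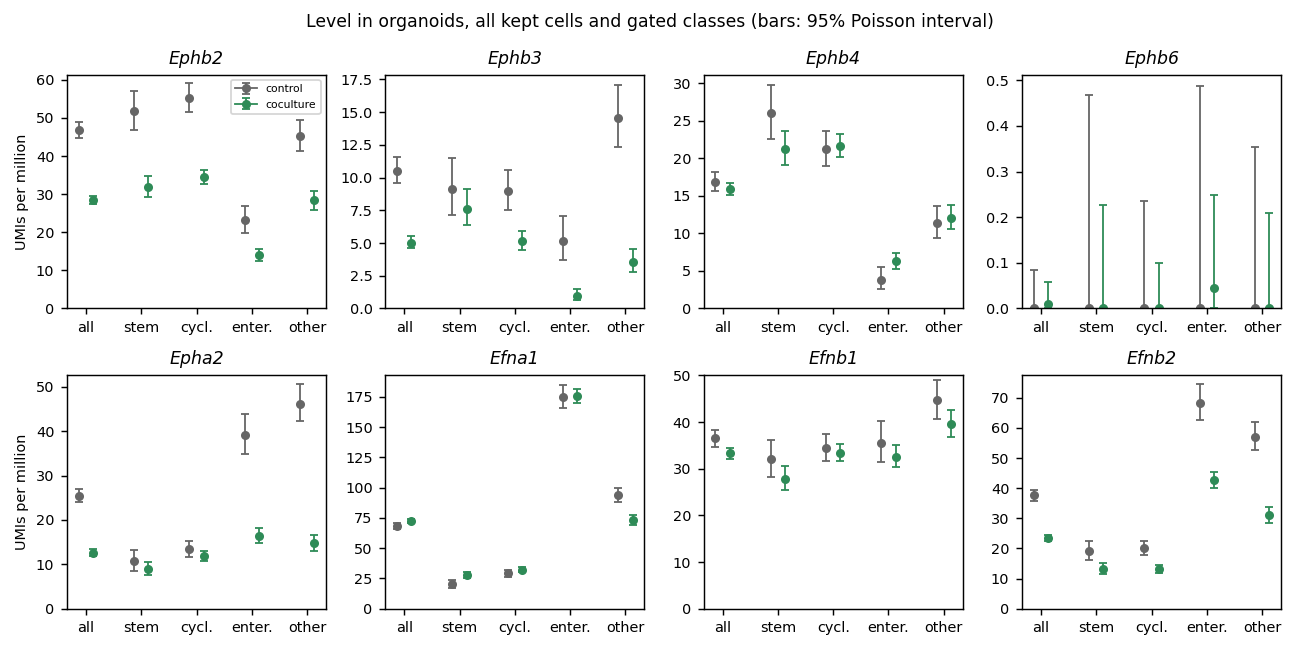
CPM of each member in control and cocultured organoids (vertical axis), over all kept cells and within gated classes, with exact 95% counting intervals as bars and 1 library per condition. Ephb2 stands at 28.4 CPM after coculture against 46.8 CPM in the control over all cells, short of the threshold of 1 log2 unit. The direction is the same in each class shown, while the Ephb4 intervals over all cells overlap.

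The remaining Eph receptors and ephrins were few in these sections. Of 14 such genes, 4 had at least 50 UMIs over the crypt-side and surface-side spots of small intestine. Epha4 (2.06 and 1.89), Epha7 (2.45 and 2.32) and Efna4 (2.89 and 2.82) were higher on the crypt side, and Epha1 (-2.37 and -1.60) was lower. In large intestine Epha4 (1.97 and 2.04) and Efna4 (1.91 and 2.63) were higher on the crypt side among 3 measured, and Epha1 was at 0.11 and -0.54. Over all genes 38.8% were higher and 11.2% lower in small intestine, and 30.8% and 9.41% in large intestine, and these counts rest on few genes. Efna4, an A-type ligand, was at 52.5 CPM in stem-like and 3.59 CPM in enterocyte-like cells of small intestine and at 31.7 CPM in stem-like and 3.24 CPM in colonocyte-like cells of large intestine. Efna4 in tuft-like cells was 7.13 CPM for small intestine against 24.8 CPM for large intestine, and 16.0 and 18.2 CPM in cycling cells.

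Of 22 signalling partners of Eph receptors, 21 were measured in each tissue. Small intestine had 6 higher on the crypt side (Vav3, Tiam1, Grb10, Fyn, Pick1 and Ptpro) and 2 lower (Kalrn and Sdcbp), beside 38.8% and 11.2% of all genes and with a median of 0.26 against 0.77. Large intestine had 5 higher (Vav3, Tiam1, Grb10, Pick1 and Ptpro) and 1 lower (Kalrn), beside 30.8% and 9.41% and with a median of 0.66 against 0.62. Kalrn, which EphB receptors engage in neurons, was at -2.13 and -2.0 in small and at -3.55 and -3.13 in large intestine. Sdcbp, a PDZ protein that binds B-type ephrins, was at -1.15 and -1.13 in small intestine. In organoids 0 of 21 partners were higher and 0 lower after coculture, beside 1.77% and 3.6% of all genes.

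Of 14 Wnt target genes of crypts, 11 were measured in spots. In small intestine 8 were higher on the crypt side (Ascl2, Lgr5, Sox9, Cd44, Myc, Nkd1, Znrf3 and Tnfrsf19) and 0 lower. In large intestine 8 were higher (Axin2, Ascl2, Lgr5, Sox9, Myc, Nkd1, Znrf3 and Tcf7) and Lef1 was lower (-2.76 and -3.40). Lgr5 and Ascl2 helped choose the spots and are no result. Without them 6 of 9 were higher in each tissue, where 38.8% of all genes were in small and 30.8% in large intestine. After coculture 2 of 10 measured targets were lower, Lgr5 and Cd44, and 0 higher, beside 3.6% and 1.77% of all genes.

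Across the 29 gated classes of at least 20 cells in both tissue libraries, the genes most like Ephb2 among 13184 were Sox9 (Pearson r 0.934), Lrrc31 (0.915) and Plekha6 (0.895). Those most like Ephb3 were Pkdcc (0.872), Steap2 (0.866) and 1810059H22Rik (0.844), a different trio. Efnb2 was most like Clic5 (0.940), Myo18a (0.893) and Asap2 (0.881), and Efnb1 most like Arhgef5 (0.939), Plpp6 (0.864) and Etl4 (0.863). Among the members, Ephb2 and Ephb3 correlated at 0.54 and Efna1 and Epha2 at 0.85. These are descriptions on the scale of log2(CPM + 10), over classes that share libraries and differ in depth.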

How the data were processed

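Cell and spot RNA of 8 mouse libraries was deposited as UMI counts per gene and barcode, made with Cell Ranger 6.0.1 against mm10 per the submitters' processing notes, and with cellranger-6.0.1 and spaceranger-1.2.1 per the file headers. The deposited counts were used unscaled and all CPM were computed from them. Cells had to reach 500 genes with no more than 20% of UMIs mitochondrial, and the top 0.8% per 1000 cells by Scrublet score was removed as doublets (scanpy 1.11.5, Python 3.11.15): 2, 9, 61 and 306 barcodes. Spots needed 500 UMIs. Between the organoids 0 barcodes were shared, and 2 kept barcodes between the tissues.

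A cell took the lineage with most high markers (at least 3, each at or above its mean CPM in the library), and epithelial cells a subclass likewise. Lineage stayed unassigned for 387 small and 951 large intestinal cells. A class with no own marker among its 10 leading genes stayed unnamed: a group of 101 cells in small intestine (Paneth markers) and one of 32 in control organoids. Intervals are exact Poisson and Clopper-Pearson (scipy 1.17.1), checked on simulated counts, and counts under 3 were set to 3 in ratios. Shares of genes called use genes with at least 50 UMIs. No hypothesis test was made. All 8 members are named, with list genes that reached a log2 ratio of 1 in both sections and the 3 genes most like 4 members. Members and lists were chosen with earlier results of these data known. Alternatives covered filters, gates, clusters, thresholds, depth and scaling.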

Additional observations from a re-analysis of the deposited data

Results flagged for a closer look

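Ephb6 had opposite signs in the tissues. Its log2 ratio of crypt-side over surface-side spots was 1.31 and 2.05 in the 2 small intestinal sections and -1.49 and -2.07 in the 2 large intestinal sections. The difference was not tested. The small intestinal values rest on 5 against 2 and 6 against 2 UMIs, and the interval of the first includes 0 (-0.72 to 5.29).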

How the results depend on the processing

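Over 851 alternatives, 107 of 116 counts of members stayed within 1.5 times and 9 moved, and among single values 594 of 735 moved by less than their counting error or section spread, 138 moved and 3 whose interval excluded 0 changed sign. With the strict cell filter 1 member was higher in large intestinal crypt-side cells, in place of 3. The count of members lower after coculture, 2 as reported, was 1 without mitochondrial and ribosomal protein genes, 1 as the mean of each cell's CPM, 1 with the strict filter, 1 without the cell with the most UMIs of the gene, and 0 with median-of-ratios scaling. The count of members higher in small than large intestinal sections, 1 as reported, was 2 among spots low in muscle RNA and ranged from 1 to 2 when 1 section was left out (2 without section 1 of small intestine and 2 without section 2 of large intestine). Those 3 were Efna1 in large intestinal cells with the strict filter (0.066), Efna1 in organoids as a mean of each cell's CPM (-0.13) and Efnb1 in organoids with median-of-ratios scaling (0.014). Values whose interval included 0 could also change sign, such as Ephb4 in organoids with that scaling (0.055). The cause was not tested. Clusters gave no stem-like cluster in large intestine, so no value exists there. No paired analysis was possible because no test was made and the sections are technical duplicates. Large intestinal spots without endothelial UMIs gave no usable ratio, with 1 and 2 surface-side spots. Ephb6 in small intestinal spots, organoids and tissue cells and Ephb3 in absorptive cells rest on few or 0 UMIs.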

Other observations

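Cells of small intestine that reached no lineage but carried Paneth markers were looked at after seeing the data. There were 211 such cells, with a median of 17981 UMIs, led by Mptx2 and defensin genes such as Defa23 and Defa27. Paneth cells are the antimicrobial cells of the small intestinal crypt base, and Ephb3 is known from them. These cells had Ephb3 at 13.1 CPM and Ephb2 at 10.6 CPM. Their log2 ratio of Ephb3 to Ephb2 UMIs was 0.31 (-0.09 to 0.71), against -2.36 in stem-like cells of the same library. Ephb4 was at 2.76 CPM, Efnb1 at 6.73 CPM and Efnb2 at 2.10 CPM, each under its level in stem-like cells (45.4, 51.2 and 7.6 CPM).

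Other Eph genes had levels in single classes. Ephb1 was at 71.4 CPM, from 88 UMIs, in lymphatic endothelial-like cells of small intestine. Efna5, an A-type ligand, was at 113 and 37.3 CPM in fibroblast-like cells of small and large intestine. Epha4, a receptor that binds ligands of both types, was at 67.9 CPM in blood endothelial-like cells of large intestine and at 26.4 CPM in its stem-like cells. Epha1 was at 34.9 CPM in enterocyte-like and 7.09 CPM in stem-like cells of small intestine.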
